A study of Mus musculus with 32 samples.

Results

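The genes examined here lie along a stretch of mouse chromosome 18 and were compared between the hippocampi of Sicd2-ISCL4 subcongenic mice (ISCL4) and their FVB-like littermates. The members are the exon probe sets that carry exactly 1 gene symbol and whose gene starts from 35 to below 65 Mb on chromosome 18 in the GRCm38 annotation. Clustered protocadherin genes (symbols beginning Pcdha, Pcdhb or Pcdhg) and 12 further genes were left out by name, Fgf1 and Aldh7a1 among them. The rule gave 1615 of the 188590 probe sets of the table, in 133 genes. The region and the genes left out were chosen from group differences seen in these same arrays. All group differences of the members are therefore given as a description: limma's adjusted p, taken over the whole table, is quoted as a label of size against spread and is no independent test.

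Each group held 8 male mice aged 6 to 8 weeks, and RNA came from the combined hippocampi of each mouse, so a replicate is a mouse. The ISCL4 mice carry a subcongenic segment of Sicd2, a locus on chromosome 15 linked to how readily neurons die after seizures, and the controls are littermates called FVB-like. The donor strain, the ends of the segment and the genotype on chromosome 18 are not given in the sources used here, and the labels record no treatment of either group. Each array was deposited as a table of exon probe sets and a table of gene-level features, so the 32 samples are 16 arrays.

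A congenic line is made by repeated backcrossing of a donor chromosome segment onto a host strain, and littermates without the segment serve as its controls. This part of chromosome 18 holds genes of many unrelated functions side by side. They include the alpha subunit of the calcium/calmodulin-dependent kinase II that is abundant at hippocampal synapses, several aminoacyl-tRNA synthetases, which load amino acids onto their transfer RNAs for translation, and a group of Kazal-type serine protease inhibitors.

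Median signals of the 16 exon-level arrays lay between 7.74 and 7.78 on the log2 scale, and pairs of arrays correlated at 0.954 to 0.987 across probe sets. The array files follow 2 naming schemes, with replicates 1 to 4 of each group in set A and 5 to 8 in set B, and the first principal component (30.0% of the variance) separated these sets. The labels do not say what separates them, and array set was a term in the main fits. Markers of hippocampal neurons were present: the mean of 7 such genes, Camk2a (itself a member) among them, ran from 9.64 to 9.79 in littermates and from 9.56 to 9.73 in ISCL4 mice, against a median of 7.32 over all gene-level features. The mean of 5 oligodendrocyte markers ran from 9.86 to 10.38 in littermates and from 9.52 to 10.12 in ISCL4 mice. Markers of neighbouring tissues had lower group means in ISCL4 mice too, by -0.24 for choroid plexus (8.79 to 10.62 in littermates and 8.39 to 10.77 in ISCL4 mice), by -0.20 for meninges and fibroblasts (8.14 to 8.75 and 7.97 to 8.55) and by -0.17 for striatum (7.57 to 8.72 and 7.28 to 8.07). The group means of astrocyte and microglia markers differed by 0.02 and 0.03. None of the marker lists held a gene with limma's adjusted p under 0.05. Fewer cells of a type and less RNA per cell cannot be told apart in bulk tissue, and the part of the marker levels in the differences below was not tested.

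Most of the members had nearly equal signal in both groups. The median absolute difference was 0.104 on the log2 scale, beside 0.102 over the whole table. Of the 1615 probe sets, 749 were higher in ISCL4 mice and 866 were lower, with a median difference of -0.01. A difference above 0.5 in size was found for 29 probe sets, or 1.80%, beside 1.99% of the whole table. The probe set farthest from 0 was 1 of the 13 of Snx24, a sorting nexin gene, at -0.95 (SE 0.382, adjusted p = 0.424). Its mean signal of 5.38 was dim, below the 25th percentile of the table at 6.20. In all, 331 member probe sets, or 20.5%, lay below that percentile. No member was removed for low signal, and without the dim ones 1284 were left.

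One probe set of the 1615 had an adjusted p under 0.05, a share of 0.0619%, beside 0.0249% of the whole table. At an unadjusted p under 0.05 there were 192 member probe sets, or 11.9%, beside 10.2% of the whole table. Probe sets of 1 gene share their source and all were read in the same 16 mice, so no interval is given for this share. They were 71 higher in ISCL4 mice, or 4.40%, where the whole table had 5.16%, and 121 lower, or 7.49%, where the whole table had 5.07%. The same share was 13.9% among the 1594 probe sets of chromosome 18 before the region and 14.7% among the 1060 after it. Among the genes left out of the region by name the shares were 36.3% for the 12 genes and 33.3% for the protocadherins. The 12 genes had 13 of 182 probe sets with an adjusted p under 0.05 and the protocadherins 5 of 165. With the probe sets of each gene reduced to their median, Fgf1 (acidic fibroblast growth factor) differed by 1.92 and Aldh7a1 (a lysine catabolism enzyme) by 0.62, and no member gene went beyond 0.41 in either direction.

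**Figure D1:**
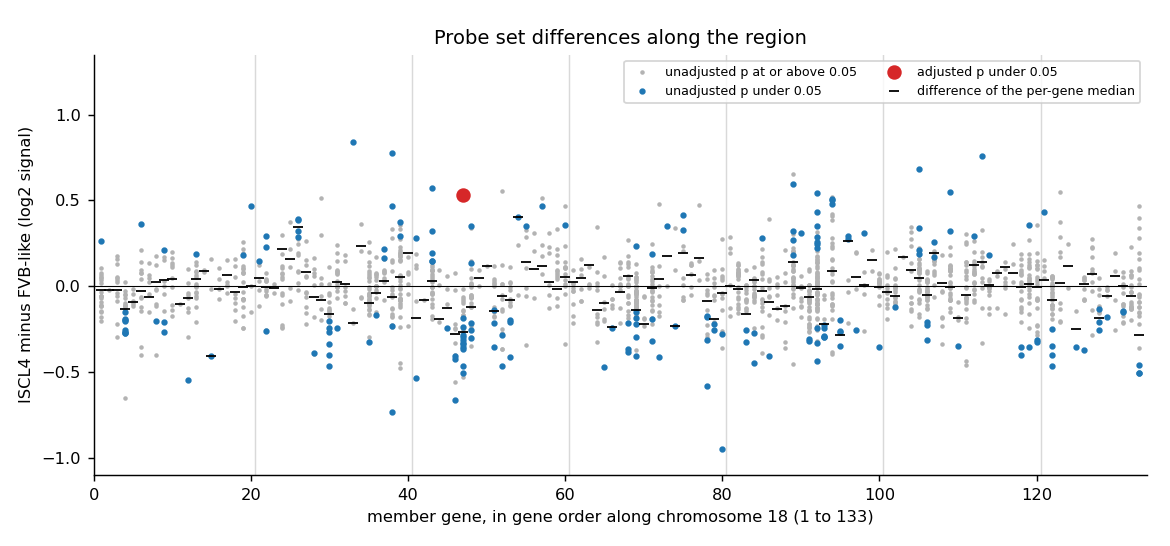
Difference in log2 signal, ISCL4 minus FVB-like (vertical axis), for each of the 1615 member probe sets, placed by the order of their gene along the chromosome (horizontal axis); vertical lines part blocks of 20 genes and dashes are the differences of per-gene medians. The 1 probe set with an adjusted p under 0.05 (large red point) belongs to Lars. Points with an unadjusted p under 0.05 lie on both sides of 0 in every block, but the last block has 1 above and 15 below.

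The 133 genes were followed in 7 consecutive blocks of gene order, of 20 genes each and 13 in the last. In the first block, from Ctnna1 (alpha-catenin) to Eif4ebp3 (a repressor of cap-dependent translation), 19 of 179 probe sets, or 10.6%, had an unadjusted p under 0.05. Of these, 8 belonged to Matr3, which encodes the nuclear RNA-binding protein matrin 3, and all 8 were lower in ISCL4 mice. The second block, from Sra1 to Pcdh1, held 27 of 251 (10.8%), with 14 higher and 13 lower. These first 40 genes therefore had shares close to that of the whole table.

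The third block, from Pcdh12 to Trim36, had the highest share, 40 of 203 probe sets or 19.7%, and 27 of the 40 were lower. The gene with the most of them was Lars, with 12. Without Lars the block had 28 of 176, or 15.9%, which was still the highest of the 7 with each block's leading gene left out, an alternative chosen after the data were seen. This block also had the highest share of dim probe sets, 31.0%, and a median absolute difference of 0.125.

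The fourth block, from Pggt1b to Snx24, held 27 of 223 (12.1%), of which 22 were lower, and the fifth, from Ppic to Dctn4, held 41 of 317 (12.9%), split into 20 higher and 21 lower. The sixth, from Rbm22 to Sh3tc2, had the lowest share, 22 of 297 or 7.41%. The last block, from Htr4 to Atp8b1, held 16 of 145 (11.0%), and 15 of the 16 were lower. The blocks were not tested against each other, because the region was chosen with these differences known.

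**Figure D2:**
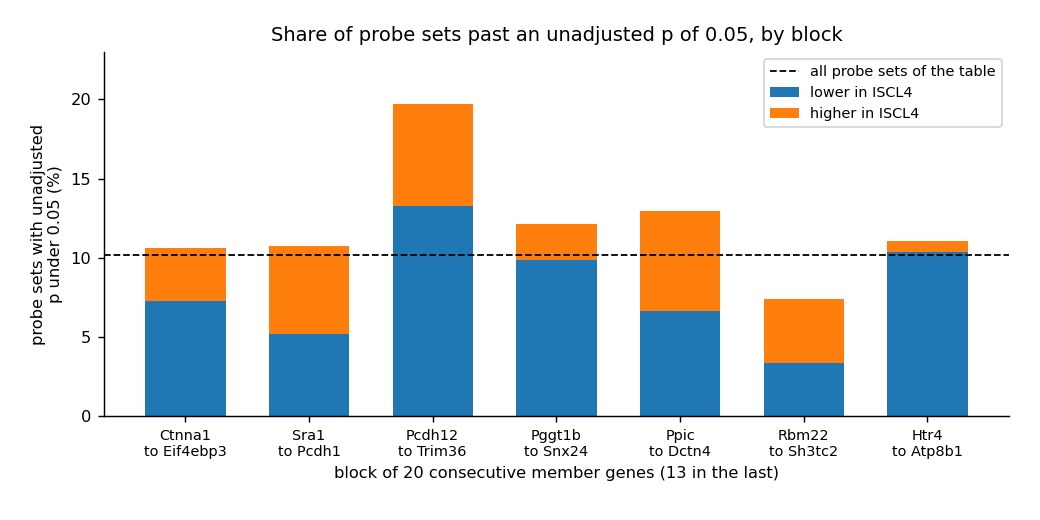
Percentage of member probe sets with an unadjusted p under 0.05 (vertical axis) in each block of consecutive genes (horizontal axis), stacked by direction; the dashed line is the 10.2% of the whole table. The block from Pcdh12 to Trim36 reaches 19.7%, the block from Rbm22 to Sh3tc2 stays at 7.41%, and the last block is almost all lower in ISCL4 mice.

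Differences at the ends of the region were small except in Atp8b1. The first genes inside it were Ctnna1, the synaptic adhesion gene Lrrtm2 and Sil1, a co-chaperone of the endoplasmic reticulum, each with a median difference of -0.02. Just outside, Etf1 (a translation release factor) differed by -0.08 and Hspa9 (mitochondrial heat shock protein 70) by 0.03. At the far end, Fech (ferrochelatase, the last enzyme of heme synthesis) differed by 0.00, Nars (asparaginyl-tRNA synthetase) by -0.05 and Atp8b1 (a phospholipid flippase) by -0.29. The genes after the region, Malt1 and Zfp532, differed by -0.04 and 0.08. The Atp8b1 value depended on how its 25 probe sets were combined: their mean differed by -0.04, and 10 of the 25 were higher in ISCL4 mice.

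Lars encodes the cytosolic leucyl-tRNA synthetase, which also serves as a leucine sensor for the growth kinase complex mTORC1. Probe set 5418094 of Lars was the 1 member with an adjusted p under 0.05. Its log2 signal was 6.95 at the lowest, 7.43 at the median and 7.74 at the highest in the 8 littermates, and 7.49, 7.91 and 8.25 in the 8 ISCL4 mice. The groups overlapped over all mice, but within each array set every ISCL4 mouse lay above every littermate. The difference was 0.53 (SE 0.0782, adjusted p = 0.0263), from 7.35 ± 0.27 (SD, n = 8) to 7.88 ± 0.26 (SD, n = 8), and it was 0.53 in set A and 0.53 in set B.

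The rest of Lars went the other way. Of its 27 probe sets the other 26 were lower in ISCL4 mice, 11 of them at an unadjusted p under 0.05. The largest of these 11 was probe set 4468589 at -0.50 (SE 0.200), and probe set 4396139, with the smallest p among them, went from 9.44 ± 0.34 to 9.08 ± 0.42 (difference -0.37, SE 0.0856, adjusted p = 0.225). The gene's median differed by -0.27 (SE 0.071, adjusted p = 0.186). The authors' gene-level feature for Lars went from 7.64 ± 0.15 (SD, n = 8) to 7.41 ± 0.25 (SD, n = 8), a difference of -0.23 (SE 0.054, adjusted p = 0.0999). A single probe set that was higher thus stood beside 26 that were lower, and neither per-gene value reached the threshold.

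The Lars call depended on single mice. It was lost when any 1 of 11 mice was left out, namely FVB-like 1, 2, 4, 6, 7 or 8 or ISCL4 2, 3, 4, 5 or 7, with adjusted p-values of 0.0584 to 0.0752 and differences of 0.50 to 0.53. It held at 0.0187 to 0.0496 without any 1 of the other 5.

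**Figure D3:**
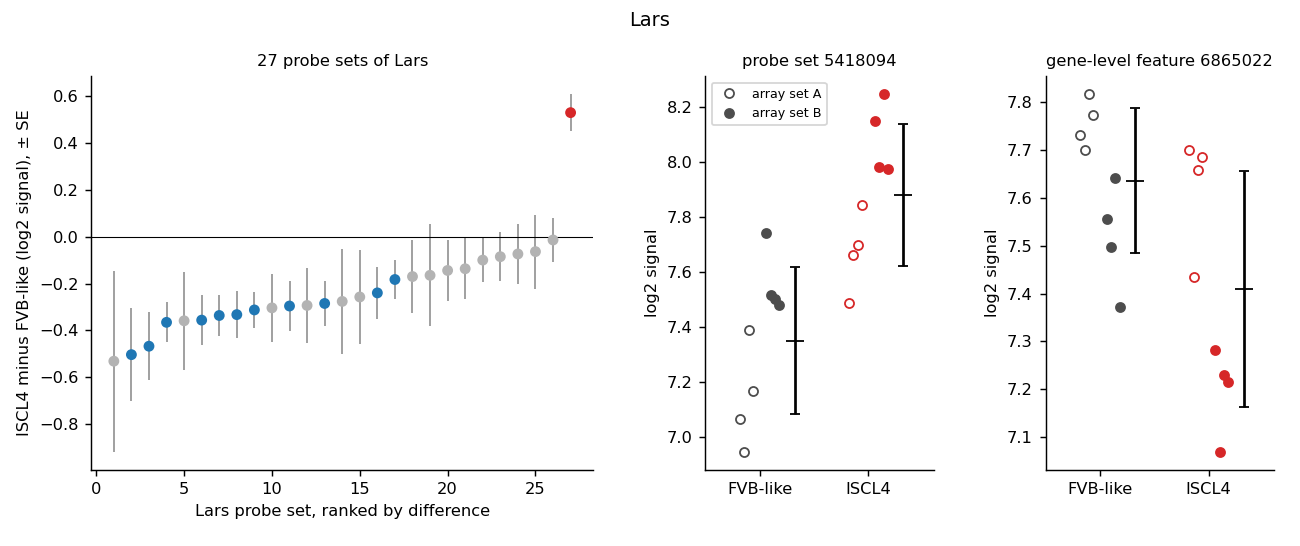
Left: difference in log2 signal with its standard error (vertical axis) for the 27 probe sets of Lars, ranked (horizontal axis), with blue for an unadjusted and red for an adjusted p under 0.05. Middle and right: log2 signal of each mouse (open, array set A; filled, array set B) with mean ± SD for probe set 5418094, higher in ISCL4 mice by 0.53, and for the gene-level feature, lower by 0.23.

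Other probe sets came near the threshold, and the genes named in this and the next paragraph, apart from Eif4ebp3 and Fchsd1, were chosen after their values were seen. Non-overlapping groups were found for 2 member probe sets, beside 0.0546% of the whole table. The first belonged to Arhgap26. Its probe set 4889469 ran from 7.83 over a median of 8.20 to 8.49 in littermates and from 8.62 over 8.78 to 8.97 in ISCL4 mice, so the difference came to 0.57 (SE 0.0926, adjusted p = 0.0545). The gene's 29 probe sets as a whole did not share this: 17 were higher and 12 lower, and their median differed by 0.03 (adjusted p = 0.904). Among the fits that left out 1 mouse, the probe set's adjusted p was under 0.05 only without FVB-like 1, at 0.0369.

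The second non-overlapping probe set was 4657941 of Eif4ebp3, with 8.21, 8.42 and 8.60 in littermates and 8.63, 8.92 and 9.06 in ISCL4 mice (lowest, median and highest). Its difference was 0.47 (SE 0.0767, adjusted p = 0.061), while the median of the gene's 3 probe sets differed by 0.00. Of the fits of this probe set that left out 1 mouse, only that without ISCL4 8 had an adjusted p under 0.05 (0.0312). Ppp2r2b, a brain-enriched regulatory subunit of protein phosphatase 2A, had probe set 4930201 at 11.00 ± 0.26 in littermates and 10.64 ± 0.27 in ISCL4 mice and differed by -0.35 (SE 0.0635, adjusted p = 0.0929). Sema6a, an axon guidance ligand and receptor, had probe set 5215931 at a difference of -0.36 (adjusted p = 0.139), while its 23 probe sets were split into 12 higher and 11 lower. Fchsd1, an F-BAR domain protein gene, had the widest range of the member genes: 1 of its 21 probe sets differed by 0.77 and another by -0.74, and its median by -0.06. In Arhgap26, Eif4ebp3 and Fchsd1 the probe sets named here lay far from the gene's own median difference.

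**Figure D4:**
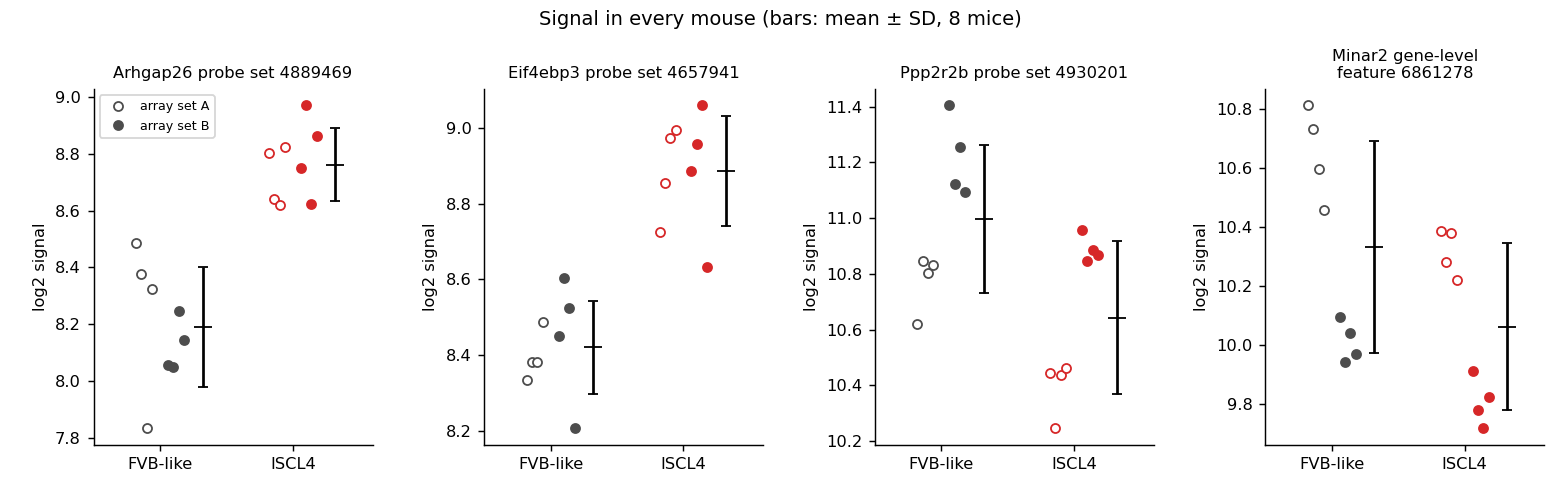
Log2 signal (vertical axis) of each mouse in FVB-like littermates and ISCL4 mice (horizontal axis; open points, array set A; filled points, array set B; bars, mean ± SD of 8 mice) for probe sets of Arhgap26, Eif4ebp3 and Ppp2r2b and for the gene-level feature of Minar2. The groups do not overlap for Arhgap26 and Eif4ebp3, while for Minar2 and Ppp2r2b the array sets differ by more than the groups.

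Read per gene, no member had an adjusted p under 0.05 by limma on the median of its probe sets, beside 0.057% of the 15796 genes of the table. At an unadjusted p under 0.05 there were 17 of 133 (12.8%), 6 higher and 11 lower, beside 11.4% of all genes. The medians were higher in ISCL4 mice for 63 genes and lower for 70, from -0.41 to 0.40. In the authors' gene-level table, which comes from the same arrays, 1 of the 130 member features had an adjusted p under 0.05 (0.769%), beside 0.292% of that table. At an unadjusted p it was 17 of 130 (13.1%), beside 14.4%. The differences of the member features ran from -0.33 (Sh3rf2, adjusted p = 0.443) to 0.47 (Gm16415, adjusted p = 0.201). The Gm16415 feature differed by 0.89 in array set A and by 0.05 in set B.

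The 1 gene-level feature with an adjusted p under 0.05 was that of Minar2, a membrane protein named for its association with the NOTCH2 receptor. Its signal ran from 9.94 over a median of 10.28 to 10.81 in littermates and from 9.72 over 10.07 to 10.39 in ISCL4 mice. The ranges overlapped over all mice, and within each array set every ISCL4 mouse lay below every littermate. The difference was -0.27 (SE 0.0532, adjusted p = 0.0446), with -0.33 in set A and -0.20 in set B. The difference between the sets was larger, -0.57 from A to B.

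All 4 exon probe sets of Minar2 were lower in ISCL4 mice, by -0.35 to -0.20, each with an unadjusted p under 0.05, and their median differed by -0.28 (SE 0.063, adjusted p = 0.126). The gene-level call was lost without any 1 of 12 mice, namely FVB-like 1, 2, 3, 5 or 7 or ISCL4 1, 2, 3, 4, 6, 7 or 8, at adjusted p-values of 0.0557 to 0.102, while the difference stayed between -0.29 and -0.24 in all 16 fits that left out 1 mouse. Unlike Lars and Arhgap26, Minar2 had 1 direction at every probe set.

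Tmco6, a transmembrane and coiled-coil protein gene, had the smallest p of the member genes by median of probe sets. Its median ran from 7.02 over 7.22 to 7.52 in littermates and from 7.46 over 7.58 to 7.71 in ISCL4 mice and differed by 0.34 (SE 0.064, adjusted p = 0.0635). Of its 12 probe sets 11 were higher, and the gene-level feature differed by 0.20 (adjusted p = 0.106). Without mouse FVB-like 3 the adjusted p-values were 0.0322 for the median and 0.0447 for the gene-level feature. With the mean of the probe sets the difference was 0.20.

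Among genes with at least 3 probe sets, 6 were lower at every probe set and 4 were higher at every one. The 6 were Minar2, Isoc1, Paip2, Tnfaip8, Slc26a2 and St8sia3, and the 4 were Spinkl, 1700034E13Rik, Grpel2 and Htr4. Isoc1, an isochorismatase-domain protein gene, was lower at all 8 probe sets, 5 of them at an unadjusted p under 0.05, and its median went from 9.27 ± 0.16 to 9.05 ± 0.15 (difference -0.22, adjusted p = 0.305). Its gene-level feature had an adjusted p of 0.209 with all mice. Leaving out FVB-like 4 gave 0.0458, and no other fit that left out 1 mouse was under 0.05. Slc26a2, a sulfate transporter, differed by -0.19, but by -0.43 in array set A and 0.05 in set B. Htr4, the serotonin receptor 4, differed by 0.04 at its median (adjusted p = 0.891), with probe sets from 0.05 to 0.43.

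Genes of RNA processing and translation had the largest share of low p-values among the role lists, which were drawn up with earlier results of these data known and in part group genes loosely. Of their 229 probe sets, 42 (18.3%) had an unadjusted p under 0.05, 11 higher and 31 lower, beside 10.2% of the whole table. The 18 genes were split evenly by their medians, 9 higher and 9 lower, with a list median of -0.02 and 0 with an adjusted p under 0.05, where all member genes had a median of 0.00. Lars gave 12 of the 42 probe sets, Matr3 gave 8 and Hars 6.

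Matr3 was lower at 19 of its 20 probe sets, with a median that went from 10.92 ± 0.25 to 10.79 ± 0.24 (difference -0.13, adjusted p = 0.304). Hars, the cytosolic histidyl-tRNA synthetase, was lower at 15 of 17, with a median difference of -0.16 (adjusted p = 0.444). Hars2, its mitochondrial counterpart and neighbour, differed by 0.03, with 10 of 15 higher. Hars and Hars2 are close paralogs, and whether a probe set reads both was not tested. Nars differed by -0.05 and Rps14, a protein of the small ribosomal subunit read by 1 probe set, by 0.17. Taf7, a subunit of the transcription factor TFIID, had the highest median of the list at 0.24 (adjusted p = 0.533), and Srfbp1, a binding partner of serum response factor, was at 0.20. The gene-level features of Taf7 and Srfbp1 differed by 0.11 and 0.11. By median, 3 of these 4 tRNA synthetases were lower in ISCL4 mice and Hars2 was higher.

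Of 21 genes of neuronal signalling and the synapse, 10 were higher and 11 lower by their medians, with a list median of 0.00 and 0 with an adjusted p under 0.05. Of their 314 probe sets 35 (11.1%) had an unadjusted p under 0.05, 13 higher and 22 lower, beside 10.2% of the whole table. Camk2a, the alpha subunit of the calcium/calmodulin-dependent kinase II, ran from 12.82 over 13.02 to 13.20 in littermates and from 12.76 over 12.95 to 13.16 in ISCL4 mice by its median, which overlapped (difference -0.05, adjusted p = 0.692), with 18 of 26 probe sets lower. Pura, a single-stranded nucleic acid binding protein needed for neuronal development, had the most negative median of the members, from 11.09 ± 0.33 to 10.69 ± 0.35 (difference -0.41, SE 0.154, adjusted p = 0.335), but it rests on 3 probe sets and its gene-level feature differed by -0.09. Pcdh1, a non-clustered protocadherin, differed by 0.19 and Pcdh12 by -0.18 at the median, and by 0.01 and 0.01 at gene level. St8sia3, a brain sialyltransferase, differed by -0.06. Tcof1, Grpel2 and Cystm1, which stand on this list, are known for ribosome biogenesis (Tcof1) and mitochondrial protein import (Grpel2) rather than for the synapse.

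Slc6a7, the brain's high-affinity proline transporter, was on no list and was higher at 13 of 14 probe sets. Its median ran from 8.66 over 8.80 to 9.14 in littermates and from 8.95 over 9.06 to 9.14 in ISCL4 mice, which overlapped. The difference was 0.20 (SE 0.061, adjusted p = 0.26), with 0.08 in array set A and 0.32 in set B.

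Genes of mitochondria and metabolism were also split evenly, 7 higher and 7 lower of 14. Of their 135 probe sets 21 (15.6%) had an unadjusted p under 0.05, 9 higher and 12 lower, beside 10.2% of the whole table. Isoc1 gave 5 of the 21, all lower, and Tmco6 gave 4, all higher. Tmco6 (0.34), Atg12 (-0.24) and Isoc1 (-0.22) lay farthest from 0. Atg12 is an autophagy conjugation protein, and its gene-level feature differed by -0.12. Slc25a2, a mitochondrial ornithine carrier, differed by -0.22 at the median of 3 probe sets and by 0.16 at their mean, because 1 dim probe set differed by 0.84, so its direction depends on the summary. Ppargc1b, a coactivator of mitochondrial genes, differed by 0.13. The list also holds Pfdn1, a prefoldin subunit, and Apbb3, an adaptor that binds the amyloid precursor protein, which are not metabolic genes.

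Of 14 genes of proteostasis, ubiquitin and trafficking, 11 had lower medians in ISCL4 mice, beside 70 of the 133 members and 7591 of the 15796 genes of the table, and 0 had an adjusted p under 0.05. The list median was -0.04, and nothing is read from this count, which was not tested. Snx2, a retromer-associated sorting nexin, differed by -0.19 and Txnl1, a thioredoxin-like protein, by -0.18, with 9 of its 10 probe sets lower. At gene level Snx2 differed by -0.08 and Txnl1 by -0.12. Of the list's 170 probe sets 19 (11.2%) had an unadjusted p under 0.05, 4 higher and 15 lower, beside 10.2% of the whole table. Hdac3, a histone deacetylase, differed by -0.04.

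Genes of the extracellular matrix, adhesion and secreted factors had 23 of 198 probe sets (11.6%) at an unadjusted p under 0.05, beside 10.2% of the whole table. Of these 17 were higher and 6 lower, and all 17 came from Fbn2 (7), Megf10 (5), Adamts19 (3) and Chsy3 (2). Of the 13 genes 7 were higher and 6 lower. Fbn2, which encodes fibrillin 2 and has the most probe sets of any member, had 36 of 68 higher, and its median differed by -0.01. Megf10, an engulfment receptor of astrocytes, was higher at 25 of 31, with a median difference of 0.14 (adjusted p = 0.503). Chsy3, a chondroitin sulfate synthase, differed by 0.26 at its median (adjusted p = 0.382), and Tnfaip8 by -0.22. At gene level Chsy3 differed by 0.07 and Tnfaip8 by -0.14. Apcdd1, a Wnt inhibitor read by 2 probe sets with mean signals of 5.22 and 6.27, differed by -0.25, with 0.00 in array set A and -0.50 in set B. Cd14, a lipopolysaccharide co-receptor, differed by 0.16, from 0.45 in array set A to -0.13 in set B.

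The 5 Kazal-type inhibitors were higher in ISCL4 mice at the median, beside 63 of the 133 members and 8205 of the 15796 genes of the table. Their list median was 0.12, and 0 had an adjusted p under 0.05. Of their 22 probe sets 2 (9.09%) had an unadjusted p under 0.05, beside 10.2% of the whole table. Nothing is read from the count of higher genes, which was not tested. Spink1 had the highest median difference of all members, 0.40 (SE 0.165, adjusted p = 0.366), at a signal of 4.04 ± 0.29 in littermates and 4.45 ± 0.39 in ISCL4 mice. Its gene-level feature differed by 0.20 (adjusted p = 0.377). Spink7 (4.64 and 4.76) and Spinkl (3.26 and 3.38) were equally dim. All 5 group means lay below the 25th percentile of the table at 6.20, where signal may be background. Among 11 chromatin and transcription factor genes 7 were higher, with a list median of 0.04. Of their 120 probe sets 8 (6.67%) had an unadjusted p under 0.05, beside 10.2% of the whole table.

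**Figure D5:**
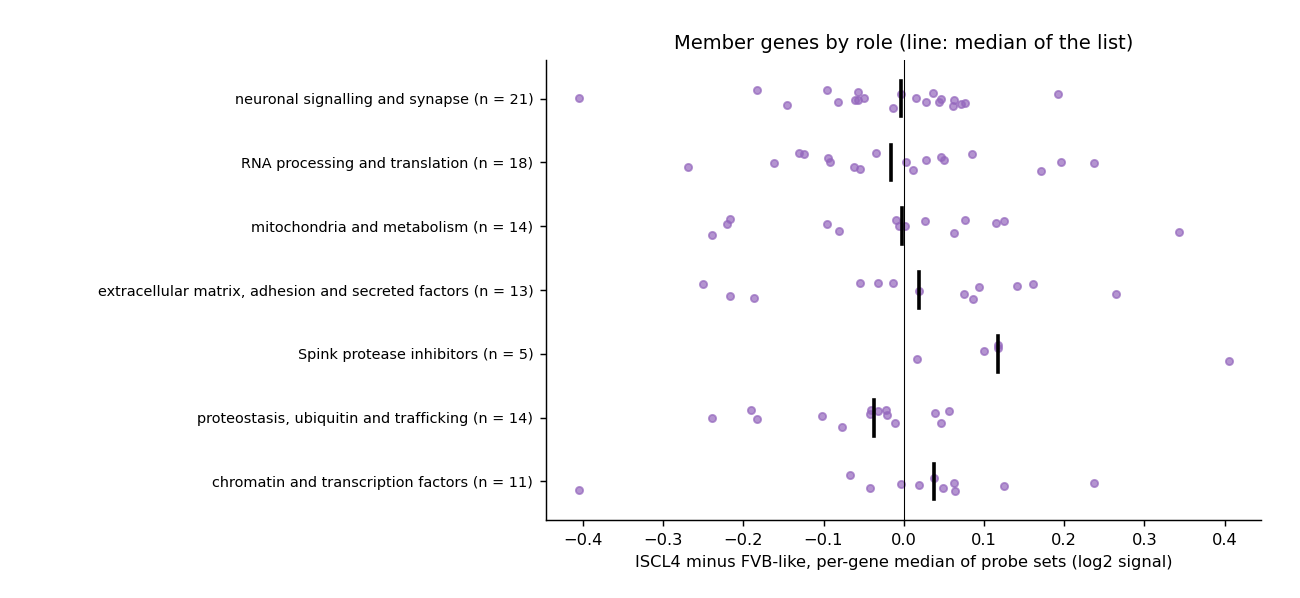
Difference of the per-gene median of probe sets, as log2 signal in ISCL4 minus that in FVB-like mice (horizontal axis), for the member genes of each role list (vertical axis; a gene may stand on more than 1 list); black lines are list medians. The list medians lie between -0.04 and 0.12, and the largest of them is that of the 5 dim Kazal-type inhibitors.

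The array sets, a measure that the rule did not use, differed at many members. By limma's adjusted p under 0.05, 638 member probe sets (39.5%) differed between the sets, 329 higher in set B and 309 lower, beside 38.7% of the whole table. The Diaph1 probe set 4591301 (Diaph1 is an actin-nucleating formin) was lower in set B by -1.59, and the Csnk1a1 probe set 5316507 (casein kinase 1 alpha) was higher by 1.24, while their group differences were -0.07 and 0.00. Each set holds 4 mice of each group. For the interaction of group and set, 0 members had an adjusted p under 0.05, beside 0% of the whole table. At an unadjusted p under 0.05 there were 97 of 1615 members, beside 11734 of 188590 in the whole table. The smallest adjusted p of a member was 0.68, in Tcof1. With so few mice per set and no call anywhere in the table, this cannot show whether the group difference depended on the set.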

How the data were processed

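Exon-array signal was measured in the hippocampus of 16 mice, 8 per group, taken from the sample titles. The deposited values are log2 signals, as the authors processed them. RMA, Partek 6.6 and build mm9 are named, per the submitters' processing notes, without their order or settings. Symbols came from the platform annotation: 179269 of 188590 probe sets had 1 symbol, 1325 several and 7996 none. They were matched to RefSeq genes of GRCm38.p6 (178914 probe sets; 114 member probe sets of 15 genes through synonyms), whose build differs from that of the files, so it gave only the rule and gene order, and no coordinate or sequence is printed.

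Group differences (ISCL4 minus FVB-like) were fitted with limma 3.58.1 in R 4.3.3 (lmFit and eBayes) over all features, with array set as a covariate and no replicate block, and Benjamini-Hochberg adjustment over the whole table at 0.05. The same fit was run on per-gene medians of probe sets and on the gene-level table of 16755 features. SDs are over 8 mice. Precision is set by how many arrays there are, and a difference had a median standard error of 0.117 at exon level and 0.062 at gene level. The fits were tested on simulated data. Figures were drawn with matplotlib 3.10.9.

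The members and lists were chosen with earlier results of these data known. Eligible to be named were probe sets and gene-level features with an adjusted p under 0.05. So were the 25 largest gene differences (at least 3 probe sets) and the 15 widest ranges of probe set differences (at least 4). The 3 largest and 2 brightest genes of each role list were eligible too, with genes at the ends of the region and of the blocks. Not all eligible genes are described. Arhgap26, Ppp2r2b, Sema6a, Hars, Hars2, Paip2, Grpel2, Pfdn1, Apbb3, Cystm1, Diaph1, Csnk1a1 and Gm16415 were chosen after their values were seen. Alternatives were a replicate block, no array set term, other scalings, a filter on dim features, an intensity trend, each array set alone and each mouse left out.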

Additional observations from a re-analysis of the deposited data

Results flagged for a closer look

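Among 194 groups of 8 mice examined for a single mouse far from the others (Dixon's gap over range at the 95% level), 8 held one. Chance gives about 1 in 20 for independent groups that each come from 1 normal distribution. Here each group mixes both array sets, some items share a gene and some were picked by smallest p, so nothing is read from that rate. Mouse FVB-like 4 was low for Spink1 by median of probe sets (3.44, the next 3.96), for Tnfaip8 by median (5.64, the next 6.36) and for the Isoc1 gene-level feature (8.75, the next 9.11). Mouse FVB-like 2 was low for Lrrtm2 (11.81, the next 11.92) and for Ndst1, a heparan sulfate enzyme (9.63, the next 9.72). Mouse FVB-like 8 was low for Lars by median (7.38, the next 7.64). Mouse ISCL4 5 was low at the Slc6a7 probe set 5422933 (8.74, the next 8.94). Mouse ISCL4 4 was high for Spink7 (5.58, the next 4.87).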

How the results depend on the processing

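The alternatives were followed for 97 items: the genes eligible to be named, and the member probe sets and gene-level features with the smallest p. In the main fit, only the Lars probe set and the Minar2 gene-level feature were called. Neither changed sign under the alternatives, where 32 of their values lost the call and 18 values of other items gained one. Sign was not followed for uncalled values, of which 12 shifted by at least the item's SD within groups. Some crossed 0: Slc25a2 went from -0.22 to 0.16 with the mean of probe sets, and Cd14 from 0.16 to -0.13 in array set B alone. E230025N22Rik went from 0.22 to -0.05 with the median of brighter probe sets. The 1 called member probe set became 0 with a replicate block, 0 without the array set term, 0 in array set A alone, 0 in set B alone and 0 leaving out Lars (an alternative chosen after seeing the data), 4 when features under the 25th percentile of mean signal were dropped and 6 with an intensity trend, and 0 to 2 with 1 mouse left out. The 0 called genes by median became 1 among the brighter features, 2 with the intensity trend, 1 with the mean of probe sets, 1 with the median of brighter probe sets and 0 to 1 with 1 mouse left out. The 1 called gene-level feature became 0 with the replicate block, 0 without the array set term, 0 after quantile normalization, 0 in set A, 0 in set B and 0 to 2 with 1 mouse left out. Calls over the whole table under the same alternatives are not given here, so nothing about the region is read from these counts. The share of members at an unadjusted p under 0.05 was 5.63% without the array set term (5.57% over all probe sets), 7.24% in set A (6.87%), 9.54% in set B (8.56%) and 8.92% to 12.4% with 1 mouse left out (8.26% to 11.2%), and the median absolute difference was 0.101 to 0.112. The cause was not tested, except that single sets hold fewer mice. With the replicate block, adjusted p was 0.0956 for the Lars probe set and 0.0693 for the Minar2 feature. Same-numbered mice correlated at 0.01 to 0.14 at exon level and at -0.05 to 0.25 at gene level, where 6 of 8 exceeded 0.1. Since not every pair did, the numbers were not taken as pairs. Mice with different numbers were not correlated for comparison, so whether the numbers mark pairs was not tested. Signal over background could not be judged without detection calls, so dim values are the least certain.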
